A study of Mus musculus with 7 samples.

Results

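Imprinted growth genes, of which usually only the copy inherited from the mother or from the father is active, were described in mouse hematopoietic stem cells (HSCs) from mice with and without a deletion of the ferritin heavy chain gene Fth1. The 10 genes H19, Igf2, Igf2r, Meg3, Dlk1, Ndn, Plagl1, Grb10, Peg3 and Mest were taken as a named list of imprinted genes tied to HSC quiescence and matched by Ensembl identifier. All 10 were found among the 55855 gene identifiers of the table. RNA was sequenced from bone marrow HSCs of mice aged 2 months. The control group (Fth1fl/fl, 3 libraries, called WT in the series text) carries a loxP-flanked Fth1 gene, and the Fth1-deleted group (Fth1△/△, 4 libraries) comes from mice with a conditional deletion of Fth1 in the hematopoietic system. Fth1 RNA was lower but not absent in the Fth1-deleted libraries, at 40.8% of the control mean, and ferritin protein was not measured. The Cre driver, the exons removed, the sort markers and the sex of the mice are not given in the sources used here. Whether the libraries of a group stem from different mice is not stated, so p values measure the spread between libraries, which may be technical.

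Imprinted genes are marked by DNA methylation in the egg or the sperm, and many of them control growth of the embryo. In HSCs, several are known as part of a network that keeps the cells quiescent. Igf2 encodes a growth factor that signals through the receptor Igf1r, while Igf2r carries IGF2 to the lysosome for degradation and Grb10 encodes an adaptor that dampens insulin and IGF receptor signalling. H19 and Meg3 are long non-coding RNAs, expressed from the maternal copy of domains whose paternal copy expresses Igf2 and Dlk1. Ndn encodes necdin, a growth suppressor that binds E2F1 and p53 and is known to restrain the division of HSCs. H19, Igf2r, Meg3 and Grb10 are expressed mainly from the maternal copy in most tissues, and Igf2, Dlk1, Ndn, Plagl1, Peg3 and Mest from the paternal copy. Gene-level values do not separate the parental copies.

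The promoters of Ndn, Grb10, Meg3 and Igf2r are shown because these 4 genes had the lower levels described next, and because CG dinucleotides carry the methylation that marks imprinted genes. Each window runs 5′ to 3′ on the gene's strand from 250 bases before to 50 after a RefSeq transcript start (GRCm38.p6), with CG dinucleotides in capitals. Ndn is at chr7:62348027-62348326 (plus strand), Grb10 at chr11:12037371-12037670 (minus strand), Meg3 at chr12:109540746-109541045 (plus strand) and Igf2r at chr17:12769657-12769956 (minus strand). For Grb10 and Meg3, which have 2 entries each, the entry with more CG dinucleotides is printed. The windows were set by transcript start and not by where the imprint lies, and DNA methylation was not measured.
Ndn: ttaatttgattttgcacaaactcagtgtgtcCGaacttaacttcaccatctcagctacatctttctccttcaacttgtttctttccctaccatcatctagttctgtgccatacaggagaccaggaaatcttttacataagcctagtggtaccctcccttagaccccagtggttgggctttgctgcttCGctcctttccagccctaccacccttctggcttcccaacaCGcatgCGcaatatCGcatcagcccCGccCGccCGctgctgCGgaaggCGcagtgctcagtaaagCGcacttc
Grb10: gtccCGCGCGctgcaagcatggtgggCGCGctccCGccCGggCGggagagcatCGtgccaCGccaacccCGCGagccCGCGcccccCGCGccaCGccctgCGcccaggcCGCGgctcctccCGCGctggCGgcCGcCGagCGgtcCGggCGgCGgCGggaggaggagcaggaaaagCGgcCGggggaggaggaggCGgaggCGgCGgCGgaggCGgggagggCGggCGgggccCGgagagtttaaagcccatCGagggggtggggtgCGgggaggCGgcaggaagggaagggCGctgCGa
Meg3: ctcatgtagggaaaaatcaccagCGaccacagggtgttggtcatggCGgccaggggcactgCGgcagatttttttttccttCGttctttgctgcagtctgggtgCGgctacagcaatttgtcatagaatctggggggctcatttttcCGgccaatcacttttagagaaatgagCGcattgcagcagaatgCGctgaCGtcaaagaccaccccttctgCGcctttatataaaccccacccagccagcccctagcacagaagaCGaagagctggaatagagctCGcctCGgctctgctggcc
Igf2r: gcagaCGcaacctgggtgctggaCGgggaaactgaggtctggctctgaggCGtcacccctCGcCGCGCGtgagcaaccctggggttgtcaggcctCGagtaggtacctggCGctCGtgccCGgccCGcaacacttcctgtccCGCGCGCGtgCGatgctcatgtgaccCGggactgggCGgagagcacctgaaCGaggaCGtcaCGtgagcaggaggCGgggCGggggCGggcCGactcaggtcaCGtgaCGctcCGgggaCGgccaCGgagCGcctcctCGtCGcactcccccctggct

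The 4 windows differed widely in CG content. The Grb10 window held 45 CG dinucleotides, a number reached by 1.93% of the 32851 promoters of the same length, and the Igf2r window held 34, reached by 7.73%. The Meg3 window held 13 (reached by 37.9%) and the Ndn window 11 (reached by 41.4%), above the median of 7. The letters TGCCGC or their reverse complement GCGGCA, the sequence bound by the imprint guardian ZFP57, occurred once in the printed Grb10 and Meg3 windows and not in those of Ndn and Igf2r. They occurred in 11.6% of all promoters. The printed Grb10 and Meg3 windows were picked for their CG content. The other Grb10 entry held 9 CG dinucleotides (reached by 45.8%) and the other Meg3 entry 1 (reached by 94.6%), both without these letters. Promoter entries were found for 9 of the 10 genes, all but H19.

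Levels are given as fragments per kilobase of the mean length of a gene's annotated transcripts, scaled to the reads counted in the library (FPKM). That length can differ from the RNA made in these cells, so an order between genes is approximate. In control HSCs, Grb10 had the highest FPKM of the 10 genes, at 83.2 ± 8.98 FPKM (SD, n = 3). Averaged over the 7 libraries, it was above 88.5% of the genes detected. Igf2r (15.3 ± 7.89), Ndn (13.8 ± 6.80) and Meg3 (13.5 ± 12.3) followed, and these 3 did not differ from each other beyond their spread. Dlk1 (1.13 ± 1.25), H19 (0.777 ± 1.35) and Peg3 (0.190 ± 0.328) had low values whose SD exceeded the mean. Mest was at 0 in every control library. In Fth1-deleted HSCs Grb10 was again highest at 57.8 ± 5.79 FPKM (SD, n = 4), followed by Igf2r (4.61 ± 2.35), Mest (2.23 ± 1.63), Ndn (2.11 ± 0.867), Meg3 (0.753 ± 0.90) and Dlk1 (0.329 ± 0.382). Grb10 stood apart in both groups. Below it, the Fth1-deleted library values of each gene overlapped those of the next gene in this order, although the means of Igf2r and Mest, and of Ndn and Meg3, differed by more than either SD. Igf2 and Plagl1 had no read in any of the 7 libraries.

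**Figure D1:**
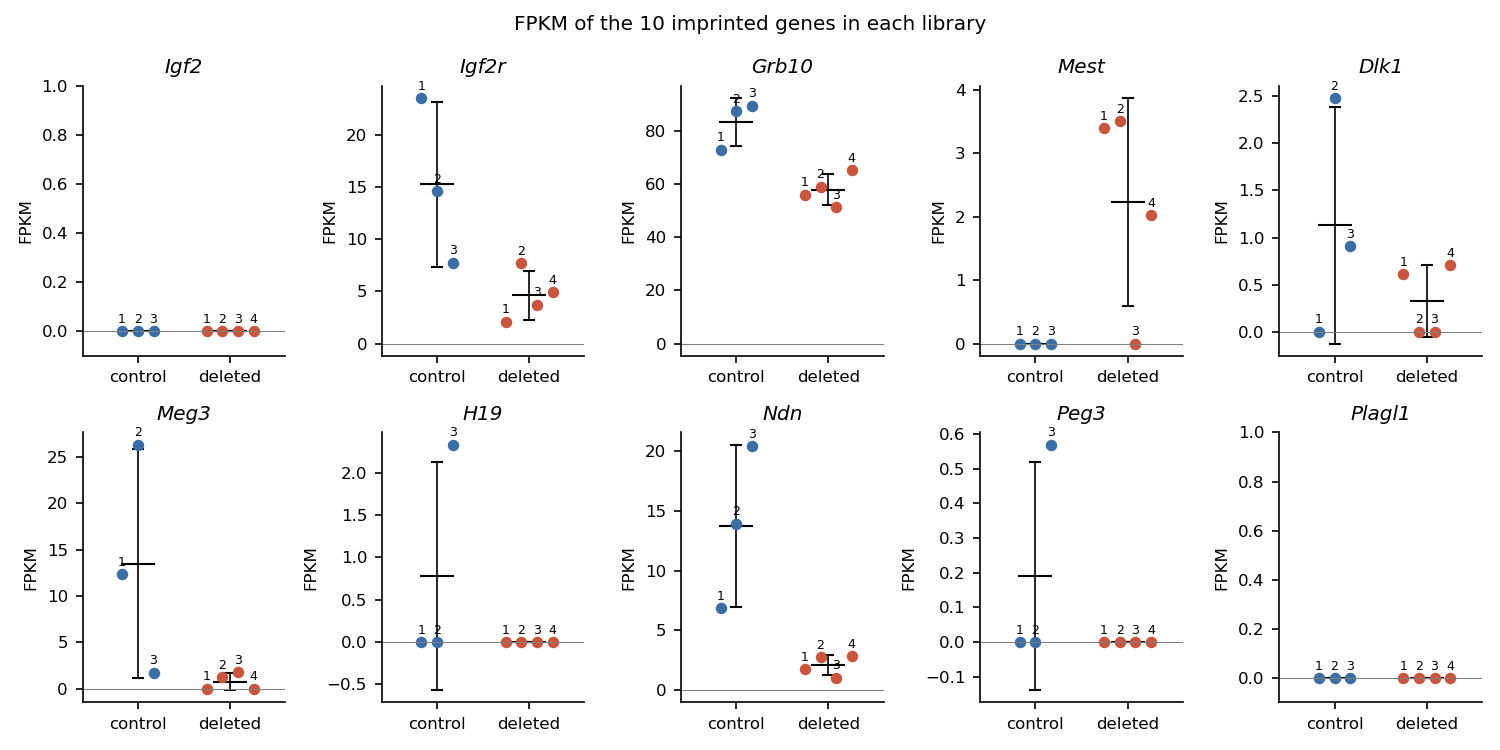
FPKM of each of the 10 imprinted genes (panels, linear axes that differ between panels) in 3 control (blue) and 4 Fth1-deleted libraries (red). Numbers are replicate numbers, and the black bars are mean ± SD. Every Fth1-deleted library lies below every control library for Ndn, Grb10 and Igf2r, while Igf2 and Plagl1 are at 0 throughout.

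A change was tested for the 5 genes with a mean of at least 1 FPKM over the 7 libraries: Ndn, Meg3, Igf2r, Grb10 and Mest. None of the 5 passed the threshold of an adjusted p of 0.05 (limma on log2(FPKM + 1), Benjamini-Hochberg over the 13948 genes tested), where 8 of all genes passed (0.0574%, or 0.0365% in limma-voom on reads recovered from the FPKM). At an unadjusted p under 0.05 in limma, 4 of the 5 were lower in Fth1-deleted HSCs, against 4.93% of all tested genes (9.83% in either direction). Limma-voom gave 0 of 5 past the threshold and 4 of 5 at an unadjusted p under 0.05, against 10.7% of all genes. In 3 of the 5, every Fth1-deleted library was below every control library, which held for 5.55% of all tested genes. The median log2 difference of the 5 was -1.51, beside -0.02 over all tested genes. The genes were chosen with earlier results of these data known, and Mest reached the filter through its level in Fth1-deleted libraries alone and Meg3 through its level in control, so these counts are a description.

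Ndn (ENSMUSG00000033585, chromosome 7, 62346569 to 62350262, plus strand) had 6.86, 13.9 and 20.5 FPKM in the controls, and 1.73, 2.76, 1.06 and 2.87 FPKM in the Fth1-deleted libraries. These values stand for 352, 775 and 911 reads and for 99, 139, 50 and 157 reads. The lowest control library was still above the highest Fth1-deleted library, although the control libraries themselves spread widely. The mean was 6.53-fold lower in Fth1-deleted HSCs, or 4.94-fold without control 3. Its log2 difference of -2.18 (SE 0.56) had an adjusted p of 0.239 in limma and a two-sided exact permutation p of 0.0286, the smallest that 3 against 4 libraries can give. Of all tested genes, 0.581% had a more negative log2 difference.

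Grb10 (ENSMUSG00000020176, chromosome 11, 11930508 to 12038683, minus strand) had the most even values of the 5 tested genes. It was at 72.9, 87.3 and 89.3 FPKM in control and at 56.0, 58.9, 51.3 and 65.1 with Fth1 deleted, from 1325 to 2652 reads per library. The groups did not overlap, with a gap between control 1 and Fth1-deleted 4. The mean was 1.44-fold lower in Fth1-deleted HSCs (log2 difference -0.52, SE 0.20, limma adjusted p = 0.444, exact permutation p = 0.0286). Its coefficient of variation, the SD as a percentage of the mean, was 10.8% between control and 10.02% between Fth1-deleted libraries, where the medians of 3284 genes of like read number (0.5 to 2 times that of Grb10) were 21.9% and 18.9%.

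Igf2r (ENSMUSG00000023830, chromosome 17, 12682406 to 12769664, minus strand) was at 23.5, 14.6 and 7.74 FPKM in control and at 2.11, 7.69, 3.72 and 4.90 in Fth1-deleted libraries. Reads numbered 1079, 727 and 309 against 108, 347, 158 and 240. Control 3 and Fth1-deleted 2 were almost level, so the groups only just separated. The mean was 3.31-fold lower in Fth1-deleted HSCs, with a log2 difference of -1.51 (SE 0.54, limma adjusted p = 0.413, exact permutation p = 0.0571).

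Airn, the non-coding RNA that is transcribed across Igf2r from the paternal copy and is known to silence it there, was named as the gene with the smallest p of a list of other imprinted genes. Airn (ENSMUSG00000078247, chromosome 17, 12741311 to 12860136, plus strand) was at 4.42, 17.2 and 4.99 FPKM in control, worth 49, 207 and 48 reads, and at 0 in all 4 Fth1-deleted libraries. Being at 0 in every Fth1-deleted library and above 0 in every control library held for 0.129% of all tested genes. Airn reached the filter through its control values alone, as does any gene with this pattern, so the share is a description. Against 3 reads per library in the Fth1-deleted group, the mean was 33.3-fold lower (log2 difference -3.07, SE 0.70, limma adjusted p = 0.193, exact permutation p = 0.0286). This fold is not a lower bound, because zeros at such read numbers were more common than counting allows. The control mean of 8.88 FPKM was 4.71 without control 2. The genes lie on opposite strands and share 0 exon bases, but 114 of the 3597 exon bases of Airn lie inside the Igf2r gene, and whether counting used strand is not given in the sources used here. Reads of Airn and of unspliced Igf2r RNA there cannot be told apart.

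Meg3 (ENSMUSG00000021268, chromosome 12, 109541001 to 109571726, plus strand) had the widest relative spread of the 5 tested genes. It was at 12.4, 26.3 and 1.72 FPKM in control (464, 1069 and 56 reads) and at 0, 1.22, 1.79 and 0 in Fth1-deleted libraries (0, 45, 62 and 0 reads). Control 1 and control 2 stood above every Fth1-deleted library, whereas control 3 lay just below Fth1-deleted 3, so the groups overlapped. The mean was 17.9-fold lower in Fth1-deleted HSCs, or 9.35-fold without control 2 and 33.0-fold without Fth1-deleted 3. With a log2 difference of -2.66 (SE 0.83), the adjusted p was 0.352 in limma and the exact permutation p 0.0571. Its coefficients of variation were 91.6% for control and 120% for the Fth1-deleted libraries, above those of 91.2% and 99.1% of genes of like read number.

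Rian and Dlk1 lie in the same imprinted domain as Meg3. Rian, a non-coding host RNA of small nucleolar RNAs that starts 32213 bases beyond the annotated end of Meg3 and is named here after its values were seen, was at 10.5, 2.98 and 3.08 FPKM in control and was listed at 0 in all 4 Fth1-deleted libraries. Its log2 difference was -2.52 (SE 0.72, limma adjusted p = 0.295, exact permutation p = 0.0286). Its control mean of 5.53 FPKM was 3.03 without control 1. Like Airn, Rian reached the filter through its control values alone. The values of Rian did not come out as whole reads with the annotated length, so no read numbers and no fold are given. Dlk1 (ENSMUSG00000040856, chromosome 12, 109452823 to 109463336, plus strand), a membrane protein related to Notch ligands, was at 0, 2.48 and 0.907 FPKM in control and at 0.611, 0, 0 and 0.705 in Fth1-deleted libraries. That is 0 to 75 reads per library, and both groups included libraries without a read. Of the 117 rows of the table from Dlk1 to Dio3, 90 are annotated as miRNA or small nucleolar RNA genes, and 4 had a value above 0 in any library.

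**Figure D2:**
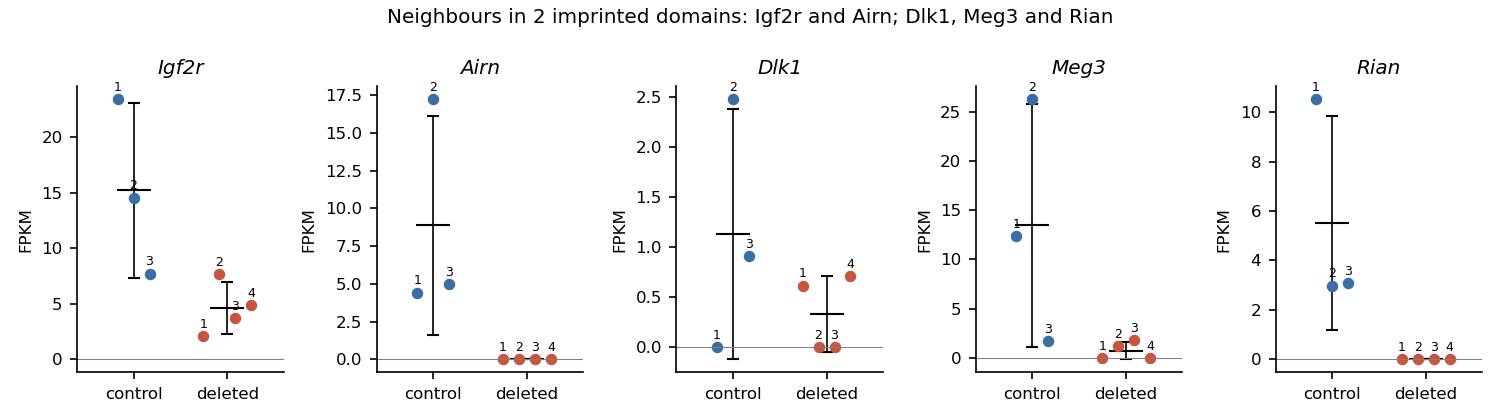
FPKM of Igf2r and its antisense neighbour Airn, and of Dlk1, Meg3 and Rian of the domain on chromosome 12, by library (blue control, red Fth1-deleted, numbers are replicates, black bars mean ± SD). Airn and Rian are above 0 in all 3 control libraries and at 0 in all 4 Fth1-deleted libraries, while Dlk1 overlaps between the groups.

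Mest (ENSMUSG00000051855, chromosome 6, 30723547 to 30748465, plus strand), a protein of the alpha/beta hydrolase fold, was the tested member with a positive difference. It had no read in the 3 control libraries and 3.39, 3.51, 0 and 2.02 FPKM in the Fth1-deleted libraries, worth 56, 51, 0 and 32 reads. Fth1-deleted 3 was level with the control libraries. The end of Mest overlaps that of Copg2 on the minus strand, which had 972 to 1730 reads per library. Whether counting used strand is not given in the sources used here, and the part of Copg2 reads in the Mest values was not tested. Against 3 reads per library in control, the mean was 10.8-fold higher (log2 difference 1.48, SE 0.79, limma adjusted p = 0.587, exact permutation p = 0.143). Zeros at such read numbers were more common than counting allows, so this fold is not a lower bound.

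The maternal transcript H19 (ENSMUSG00000000031, chromosome 7, 142575529 to 142578143, minus strand) was seen in control 3 alone, at 2.33 FPKM or 35 reads. Peg3 (ENSMUSG00000002265, chromosome 7, 6703892 to 6730431, minus strand), a zinc finger protein, was also seen in control 3 alone, at 0.569 FPKM or 30 reads. With control 3 left out, both genes were at 0 in every library. Igf2 (ENSMUSG00000048583, chromosome 7, 142650766 to 142666816, minus strand), the ligand of the set, and Plagl1 (ENSMUSG00000019817, chromosome 10, 13060504 to 13131694, plus strand), a zinc finger transcription factor, had 0 reads throughout. A count of 0 allows up to 3 reads per library, or an average of 0.111 FPKM for Igf2 in control and 0.106 in Fth1-deleted libraries, and 0.226 and 0.217 for Plagl1.

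Such floors cover counting error only, and zeros were far more common than counting allows. Among the 2003 genes with a mean of 20 to 60 reads per library, 39.6% of values were 0, where counting alone would give 3.80e-08%. Control had a share of 42.9%, and the Fth1-deleted group one of 37.2%. Between 60 and 200 reads it was 9.79%. A 0 of H19, Peg3, Dlk1, Mest, Rian or Airn therefore does not show that the RNA was absent from the cells.

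**Figure D3:**
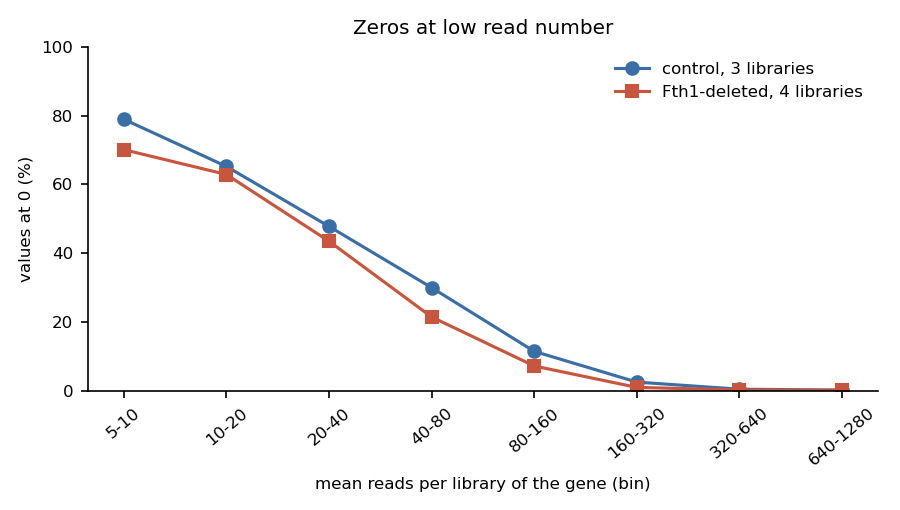
Share of values at 0 (%) against the mean reads per library of the gene, in 8 bins that double in read number from 5 to 10 upward, for genes whose reads came out whole (blue control, red Fth1-deleted). The share falls from 79.0% in control and 70.1% in Fth1-deleted libraries in the lowest bin to 0.164% and 0.104% in the highest, and is higher in control in every bin.

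The differences of the 5 tested genes kept their sign in every alternative run that tested them, including each library left out. Mest was tested in 16 alternatives and the other genes in 17. The log2 difference ranged from -2.63 to -1.34 for Ndn, from -6.13 to -1.43 for Meg3, from -1.95 to -1.03 for Igf2r, from -0.63 to -0.46 for Grb10 and from 0.50 to 4.86 for Mest. For Meg3 and Mest, the ends of the range came from an offset of 5 in place of 1 and from limma-voom. The lowest adjusted p over the alternatives was 0.184 for Ndn, 0.195 for Meg3, 0.286 for Igf2r, 0.279 for Grb10 and 0.459 for Mest.

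**Figure D4:**
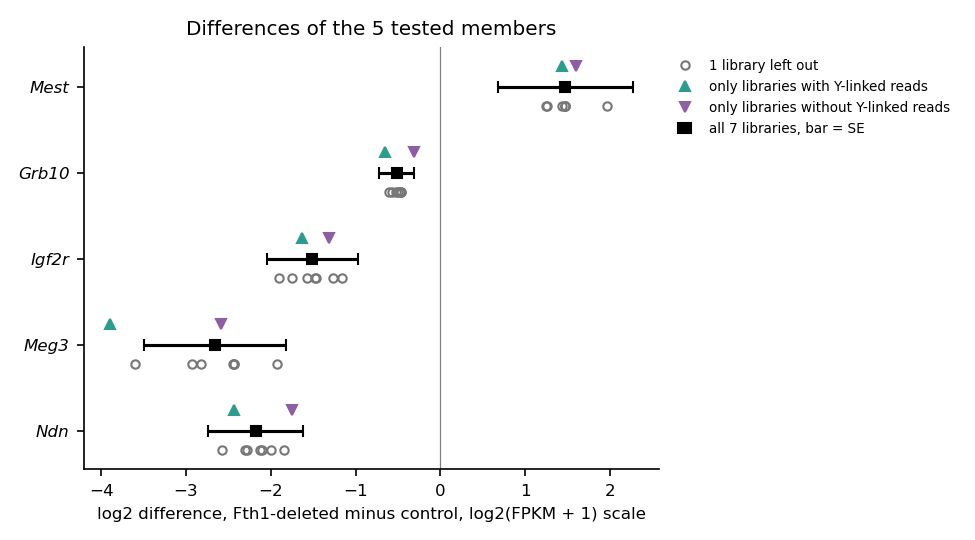
Log2 differences (Fth1-deleted minus control, log2(FPKM + 1) scale) of the 5 tested genes, with SE (black), with each library left out in turn (open circles) and within libraries with or without reads of Y-linked genes (triangles). Ndn, Meg3, Igf2r and Grb10 lie below 0 and Mest above 0 in every case.

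**Figure D5:**
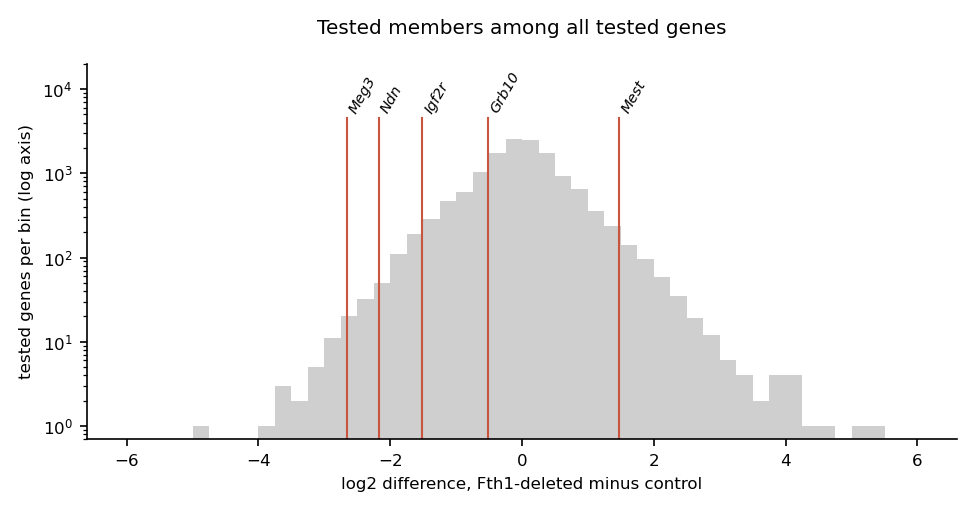
Histogram of the log2 differences of all 13948 tested genes (grey, bins of 0.25, log count axis), with the 5 tested imprinted genes as red lines. Meg3 at -2.66 and Ndn at -2.18 lie in the far negative tail, Igf2r at -1.51 and Mest at 1.48 nearer to the middle, and Grb10 at -0.52 within the bulk.

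Ndn and Grb10 were among the closest genes of each other over the 7 libraries, though each of the 5 tested genes had a match about as close. Among 9481 named genes with a mean of at least 5 FPKM, the gene most like Grb10 was Ndn (Pearson r = 0.987 of log2(FPKM + 1), 7 libraries), and the genes most like Ndn were Osbpl9 and Grb10 (both r = 0.987). Osbpl9, which encodes a lipid transfer protein, was at 79.2 FPKM on average in control and 42.7 in Fth1-deleted libraries. The closest genes were Shprh (0.982) and Cep95 (0.963) for Igf2r, Pdp1 (0.988) and Rsrp1 (0.981) for Meg3, and Mir186 (0.990) and Egfl7 (0.967) for Mest. These r values were picked as the highest of the search, and all these points share libraries, depth and the contrast between the groups.

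Reads of Y-linked genes and of ribosomal RNA differed between libraries. Reads of Y-linked genes were found in control 2 and in Fth1-deleted 1, 2 and 3. Among these 4 libraries the log2 difference was -2.43 for Ndn, -3.89 for Meg3, -1.63 for Igf2r, -0.65 for Grb10 and 1.44 for Mest. Among control 1, control 3 and Fth1-deleted 4, which lacked such reads, it was -1.75, -2.59, -1.31, -0.31 and 1.6 in the same order. Ribosomal RNA, with mitochondrial ribosomal RNA included, took 0.266% to 1.09% of reads in control and 1.44% to 1.57% in Fth1-deleted libraries. With this share as a covariate in limma, the log2 difference was -2.24 for Ndn (SE 1.20, adjusted p = 0.539) and -1.95 for Igf2r (SE 1.2, adjusted p = 0.581). It was -0.63 for Grb10 (SE 0.43, adjusted p = 0.635), -5.46 for Meg3 (SE 1.53, adjusted p = 0.224) and 1.54 for Mest (SE 1.63, adjusted p = 0.768). For Airn it was -4.96 (SE 1.28, adjusted p = 0.190), and for Rian -1.87 (SE 1.44, adjusted p = 0.680). The share did not overlap between the groups, so in this fit it cannot be told apart from the deletion.

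Levels of markers of HSCs and of other cells are given beside these. The 12 HSC markers, none of them at 0 in all libraries, summed to 1256 to 1939 FPKM in control and to 991 to 1303 FPKM in Fth1-deleted libraries. Macrophage markers summed to 22.9 to 49.3 and 64.7 to 166, with 8 of 8 positive, 0 past the threshold and none at 0 in all libraries. Neutrophil and myeloid progenitor markers summed to 156 to 360 and 186 to 564 (Ly6g at 0 throughout). Much of this sum was Prtn3, at 212 and 202 FPKM on average. Mpo was at 2.07 ± 1.70 and 64.5 ± 56.1 without overlap, as for 4.1% of all tested genes in this direction (limma adjusted p = 0.0803). Elane and Ctsg were above 0 in Fth1-deleted 3 and 4 alone. B cell markers summed to 12.1 to 26.2 and 24.2 to 87.8, and T cell markers to 4.86 to 8.95 and 0 to 19.7 (Cd3e at 0 throughout). Erythroid markers summed to 54.3 to 331 and 112 to 448. Stromal markers summed to 69.7 to 93.8 and 35.7 to 76.6, with Lepr, Pdgfra, Lum and Prrx1 at 0 in all libraries. Most of this sum was Bgn (40.8 and 19.3 FPKM on average) and Runx2 (32.1 and 30.8). Endothelial markers summed to 301 to 408 and 298 to 354, with Flt1 at 0. Most of that sum was Eng (171 and 125 on average) and Vwf (123 and 142), while Cdh5 (1.41 and 0.327) and Kdr (1.49 and 1.26) were low. Of the tested markers, 7 of 7 for B cells, 7 of 8 for neutrophils and myeloid progenitors and 6 of 7 for erythroid cells were also positive. The 1 T cell marker tested was negative, as were 4 of 6 stromal, 4 of 6 endothelial and 9 of 12 HSC markers. The part of these differences, of Y-linked reads and of ribosomal RNA in the values of the imprinted genes was not tested. In bulk RNA, fewer cells of a type and less RNA per cell cannot be told apart.

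Other imprinted genes did not move in a single direction. Of a list of 49, 48 were in the table, 15 of them at 0 in all libraries, and 28 were tested. None passed the threshold in limma or limma-voom (5 of 28 at an unadjusted p under 0.05 in either, against 9.83% and 10.7% of all tested genes), 19 were negative and 9 positive, and the median log2 difference was -0.17. Over all tested genes, 51.3% were negative. Phlda2, a growth-restraining gene of the placenta expressed from the maternal copy, was at 16.9, 16.1 and 22.3 FPKM in control and at 34.9, 51.5, 44.9 and 32.6 in Fth1-deleted libraries. The groups did not overlap, as for 4.1% of all tested genes in this direction, with a log2 difference of 1.10 (SE 0.28, limma adjusted p = 0.239, exact permutation p = 0.0286). Cdkn1c, an imprinted cell-cycle inhibitor of the same domain, chosen after its values were seen, was at 8.19 ± 3.26 and 7.52 ± 3.33 FPKM (log2 difference -0.14, SE 0.52).

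Genes through which IGF signals showed differences of mixed size. Of 24 genes of IGF and insulin signalling, 16 were tested, 13 negative and 3 positive, with a median log2 difference of -0.23 and 0 past the threshold in limma or limma-voom (4 of 16 at an unadjusted p under 0.05 in either, against 9.83% and 10.7% of all tested genes). Igf2bp2, an RNA-binding protein that binds Igf2 mRNA, was at 8.06, 13.2 and 8.15 FPKM in control and at 3.28, 2.16, 1.27 and 2.50 in Fth1-deleted libraries. The groups did not overlap, as for 5.55% of all tested genes in this direction (log2 difference -1.72, SE 0.53, limma adjusted p = 0.339, exact permutation p = 0.0286). Igfbp4, a secreted IGF-binding protein, was at 232 ± 35.5 and 333 ± 56.9 FPKM, and its groups did not overlap either, as for 4.1% of all tested genes in this direction (log2 difference 0.51, SE 0.19, limma adjusted p = 0.423). With the ribosomal RNA share as a covariate, the log2 difference of Igfbp4 was 0.88, with an adjusted p of 0.439 in limma. The receptor gene Igf1r, named after its values were seen, was at 65.3 ± 12.7 and 63.5 ± 11.6 FPKM (log2 difference -0.04, SE 0.24).

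Factors linked to imprints were mostly well expressed. Beside factors that maintain imprints, their list held enzymes that set or remove DNA methylation, such as Dnmt3b and Tet1. Of 19, 16 were tested, with 11 positive and 5 negative, a median log2 difference of 0.07 and 0 past the threshold in limma or limma-voom (2 of 16 at an unadjusted p under 0.05 in either, near the 9.83% and 10.7% of all tested genes). Uhrf1, which brings the maintenance methyltransferase to newly copied DNA, was at 92.0 ± 25.8 FPKM in control and 146 ± 5.31 in Fth1-deleted libraries, with no overlap, as for 4.1% of all tested genes in this direction (log2 difference 0.69, SE 0.20, limma adjusted p = 0.309). Dnmt3b, a DNA methyltransferase, was at 28.9 ± 7.11 and 42.6 ± 2.82, also without overlap (log2 difference 0.57, SE 0.26, limma adjusted p = 0.501). With the ribosomal RNA share as a covariate, the log2 difference of Dnmt3b was 0.081, with an adjusted p of 0.963 in limma. Of 11 genes whose products interact with those of the 10 genes, 10 were tested and 0 passed (0 at an unadjusted p under 0.05 in limma, 1 in limma-voom). The smallest p belonged to the receptor gene Notch2 (38.7 ± 7.10 and 26.2 ± 7.81 FPKM, log2 difference -0.57, SE 0.30, limma adjusted p = 0.574), followed by the ubiquitin ligase gene Nedd4 (319 ± 12.1 and 276 ± 43.0, log2 difference -0.22, SE 0.17, limma adjusted p = 0.698).

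Across the series, counted reads ranged from 12058392 to 15453168 per library. Fth1 itself was at 552 to 659 FPKM in control and at 114 to 358 in Fth1-deleted libraries, below every control library in 4 of 4, with a log2 difference of -1.42 (SE 0.33, limma adjusted p = 0.193).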

How the data were processed

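RNA from 3 control and 4 Fth1-deleted libraries was analysed. Per the submitters' processing notes and the series text, alignment to GRCm38 used HISAT2 2.0.4 and counting HTSeq 0.9.1, and the authors derived FPKM from each gene's reads and length. The annotation release and filters are not given in the sources used here. Identifiers (55394 of 55855) were matched to GENCODE mouse release 21, whose coordinates are GRCm38. In each library, 1 read adds a constant to the deposited FPKM times the rounded mean length of a gene's transcripts, and reads were recovered with it. Of values under 50 reads, 98.9% to 99.4% were whole within 0.05.

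Genes averaging at least 1 FPKM were tested by limma-trend (limma 3.58.1, R 4.3.3) on log2(FPKM + 1), without covariates, two-sided and with Benjamini-Hochberg adjustment. The fit was tested on simulated data that lacked the excess of zeros found here, so that test does not cover genes with many zeros. Exact permutation tests used the 35 splits into 3 and 4. A log2 difference on this scale understates the change of low genes. The members and lists were chosen with earlier results of these data known. Named were the members and, where none passed, the 2 genes with the smallest p of each list. The lists were other imprinted genes, IGF and insulin signalling, imprint-linked factors and partners of the members. Also named were the 2 genes most correlated with each tested member among those with a mean FPKM of at least 5, without unnamed models. Marker lists covered HSC, macrophage, neutrophil, B, T, erythroid, stromal and endothelial cells, and the result of 1 HSC marker is not reported here. Alternatives were other offsets, filters and scalings, limma-voom, covariates, the replicate block and each library left out. The split by Y-linked reads was chosen after seeing the data.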

Additional observations from a re-analysis of the deposited data

How the results depend on the processing

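The count of members past the threshold stayed at 0 in all 17 alternatives, with 4 to 8 of the 10 tested. The count over all genes was 8 and was less stable. It was 0 without the filter, 5 with limma-voom, 2 with the ribosomal RNA covariate and 17 with a term for Y-linked reads, and 0 to 4 with 1 library left out (4 without control 2, 0 without any other). The cause was not tested. With the replicate number as a block it was 0, and no member passed. Fth1-deleted 4 shares its number with no control library and adds nothing to the difference in that fit. Libraries of the same number did not deviate together (correlations of 0.0090, 0.061 and -0.037), so the numbers were not taken as pairs. Grb10 was at -0.31 rather than -0.52 among the libraries without Y-linked reads. Igf2, Plagl1, H19, Peg3, Dlk1 and Mest had 0 to 75 reads per library, and zeros in this range exceeded what depth gives, so read numbers alone do not set their precision.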
